A study of Homo sapiens with 16 samples.

Results

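The genes that build the mitotic spindle, hold sister chromatids to it and drive entry into and exit from mitosis were followed as 59 genes. They were chosen by symbol for their known roles, with earlier results of these data known, among the 27037 gene symbols of the count table. Counts of these genes set against shares of all tested genes are therefore a description. All 59 had enough reads to be tested, with 15415 genes tested in all. RNA sequencing was performed on SK-N-BE(2)C, an established MYCN-amplified neuroblastoma line with loss of 1p that is classed as adrenergic, in 4 groups of 4 replicates. Every culture was of this single line. Over 5 days the cells were kept in DMSO as the vehicle, in RA (all-trans retinoic acid) at 10 µM, in PB (palbociclib) at 1 µM, or in PB+RA, which joined the 2 doses. The study asked what PB, an inhibitor of the kinases CDK4 and CDK6, and RA, a retinoid that makes neuroblastoma cells differentiate, do alone and together. The methods define replicates as different passages of the line plated as separate experiments.

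CDK4 and CDK6 phosphorylate RB and its relatives, and unphosphorylated RB family proteins hold E2F target genes silent. Mitotic genes come on later in the cycle than S-phase genes. In resting cells the DREAM complex, in which the MuvB core joins an RB relative and a repressive E2F, binds their promoters at a short element, the cell cycle genes homology region (CHR). In cycling cells MuvB instead joins B-MYB (the product of MYBL2) and then FOXM1, and the same promoters fire in G2 phase. RNA from bulk cultures cannot tell fewer cells in G2 phase and mitosis from less of each transcript per cell, which holds for every level given here.

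The promoters are shown first because most of those found held letters matching the CHR in the window searched. The CHR was not used to choose the genes. Promoters of 250 bases before to 50 bases after the annotated start were taken from RefSeq (GRCh38.p14), which held 49 of the 59 genes, with the first listed start used for each. The others were BUB3, TTK, AURKA, BIRC5, UBE2C, CENPM, KNTC1, TPX2, RACGAP1 and FOXM1. A CHR, read as TTTGAA or TTCGAA on either strand, was present in 34 of the 49 promoters (69.4%), against 16.6% of all 27305 promoters and 11.2% of the 11316 promoters of tested genes. A CCAAT box (CCAAT on either strand, bound by NF-Y) was present in 33 (67.3%, against 35.7% of all promoters), and both elements in 24 (49.0%, against 6.58%). An E2F site (TTCCCGC or TTGGCGC, and likewise TTCGCGC or TTGCCGC, on either strand) stood in 18 (36.7%, against 13.1%), a MYB site (AACGG on either strand) in 24 (49.0%, against 19.9%) and a TATA box (TATAAA on either strand) in 3 (6.12%, against 12%). Among promoters of tested genes, the CCAAT box stood in 36.4% and both elements in 4.78%. The E2F site stood in 20.2% of these, the MYB site in 25.9% and the TATA box in 5.79%, close to its share in the 49. No motif contains another, but matches can share letters (an E2F site and a CCAAT box in ECT2 share CCAA), so 1 stretch can count for more than 1 motif. With only the bases before the start searched, the CHR was found in 23 of 49 promoters (46.9%) against 14.6% of all. With every listed start of a gene searched, an alternative chosen after seeing the data, it was found in 36 (73.5%) against 19.5%.

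Of the mitotic entry, anaphase onset and checkpoint genes with a promoter found, 4 had a CHR within the 150 bases before the start. Their sequences are printed 5′ to 3′ on the coding strand, ending at the base before the start, with CHR and CCAAT boxes in capitals. On GRCh37, the assembly that the counts used as hg19, they lie on the plus strand at chr1:43824502-43824651 (CDC20), chr12:53661933-53662082 (ESPL1), chr15:40453120-40453269 (BUB1B) and chr15:59397195-59397344 (CCNB2).
CDC20: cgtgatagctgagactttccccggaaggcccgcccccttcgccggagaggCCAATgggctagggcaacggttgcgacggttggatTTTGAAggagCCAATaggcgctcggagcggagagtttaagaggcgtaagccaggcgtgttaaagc
ESPL1: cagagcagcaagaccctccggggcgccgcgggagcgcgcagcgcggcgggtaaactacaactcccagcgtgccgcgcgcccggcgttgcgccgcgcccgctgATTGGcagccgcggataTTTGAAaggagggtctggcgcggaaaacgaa
BUB1B: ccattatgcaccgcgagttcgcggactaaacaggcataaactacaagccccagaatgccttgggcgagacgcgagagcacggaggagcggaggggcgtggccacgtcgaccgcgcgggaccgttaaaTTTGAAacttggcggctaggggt
CCNB2: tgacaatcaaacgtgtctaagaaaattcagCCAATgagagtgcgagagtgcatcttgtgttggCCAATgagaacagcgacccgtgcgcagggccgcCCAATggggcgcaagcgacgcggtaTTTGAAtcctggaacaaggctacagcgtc
In ESPL1, BUB1B and CCNB2 the CHR began 31, 23 and 29 bases before the start, and in CDC20 it began 65 bases before. CCNB2 carried 3 CCAAT boxes in this stretch, CDC20 carried 2, ESPL1 carried 1 (as ATTGG on the printed strand) and BUB1B none. A match is a run of letters in this window, not a measured binding site. With both agents (values below) the median log2 fold change was -2.01 for the 34 with a CHR and -1.98 for the 15 without.

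Total counts ranged from 19515779 to 31620821 per library, and the lowest count of any of the 59 genes in any library was 78. All 8 adrenergic marker genes examined were expressed in every group, with MYCN between 2378 and 6337 CPM (counts scaled to the library total), and their summed level was 5081 to 5573 CPM in DMSO, 4940 to 5904 under RA, 8000 to 9235 under PB and 6431 to 8544 under PB+RA. Of the 5 mesenchymal markers analysed, summed at 529 to 1276 CPM over all libraries, FOSL1 and YAP1 stayed below 5 CPM, VIM lay between 469.5 and 1138 CPM, and none was at 0 in any library. The part of these shifts in the results was not tested. Replicates 1 and 2 stood apart from replicates 3 and 4 in all 4 groups along the third principal component of all tested genes. Among the 59 genes, 56 in PB+RA were higher in replicates 3 and 4, by a median log2 of 0.37, and in PB the same number were, by 0.16. In RA only 15 were higher, and in DMSO 33. The labels give no reason for this split. Counts of calls within each pair are given beside the results for RA, for PB+RA against each single agent and for the interaction.

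The 59 genes together took 0.973% ± 0.00853 (SD, n = 4) of all counts in DMSO, 0.787% ± 0.0262 under RA, 0.487% ± 0.0333 under PB and 0.253% ± 0.0310 under PB+RA. The 4 groups did not overlap in this share. RA thus left 80.9% of the summed DMSO level, PB 50.1% and both agents 26.0%. The mean levels ran in the order DMSO, RA, PB, PB+RA for 58 of the 59 genes, against 15.8% of all tested genes, with CDC25B the exception. All 4 values of each group lay clear of those of the next for 49 genes, against 3.47% of tested genes. Taken step by step, DMSO lay above RA without overlap in 52 genes (17.9% of tested genes), RA above PB in 56 (25.3%) and PB above PB+RA in all 59 (15.2%).

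**Figure D1:**
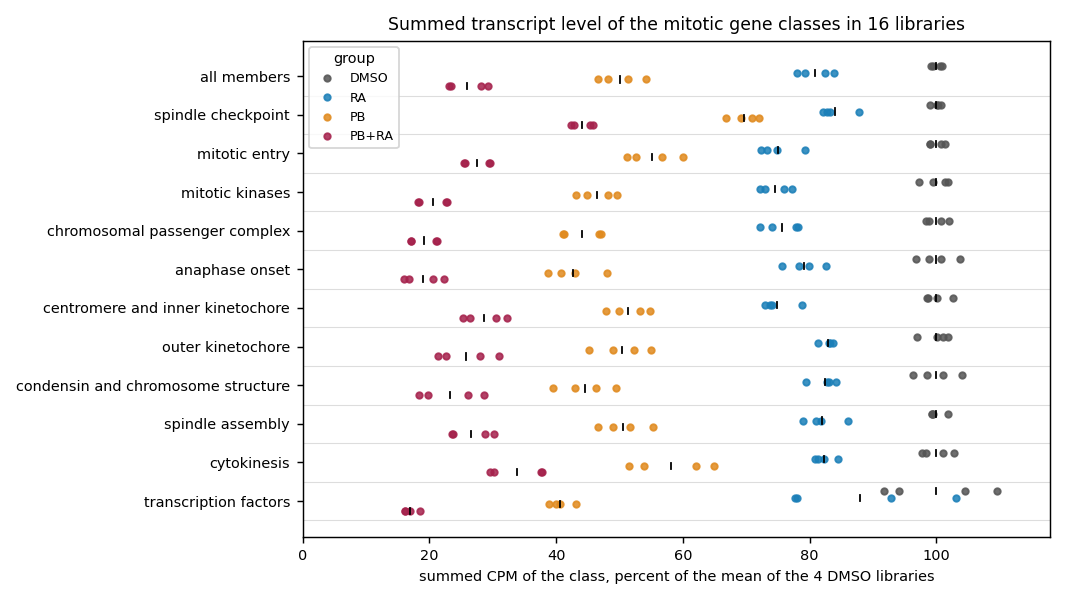
Summed CPM of all 59 genes and of each of 11 functional classes in 16 libraries, as a percent of the mean of the 4 DMSO libraries (x axis starts at 0). Points are libraries coloured by group and black bars are group means; PB+RA sits lowest in every class, from 16.9% for the transcription factors to 44.1% for the spindle checkpoint genes.

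Calls required a log2 fold change beyond 0.5 in size and, in edgeR's quasi-likelihood test, an adjusted p (Benjamini-Hochberg, all tested genes) under 0.05. Adjusted p-values and standard errors (SE) below are from that fit. With PB, 55 of the 59 genes fell, against 11.3% of all tested genes called lower. With RA, 3 fell, against 2.54%. With PB+RA all 59 fell, against 17.9%. None of the 59 was called higher in any of these comparisons, while 16.9%, 10.8% and 24% of all tested genes were. The median log2 fold change of the 59 was -1.03 for PB, -0.33 for RA and -1.98 for PB+RA, and that of all tested genes was 0.03, 0.01 and 0.04.

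**Figure D2:**
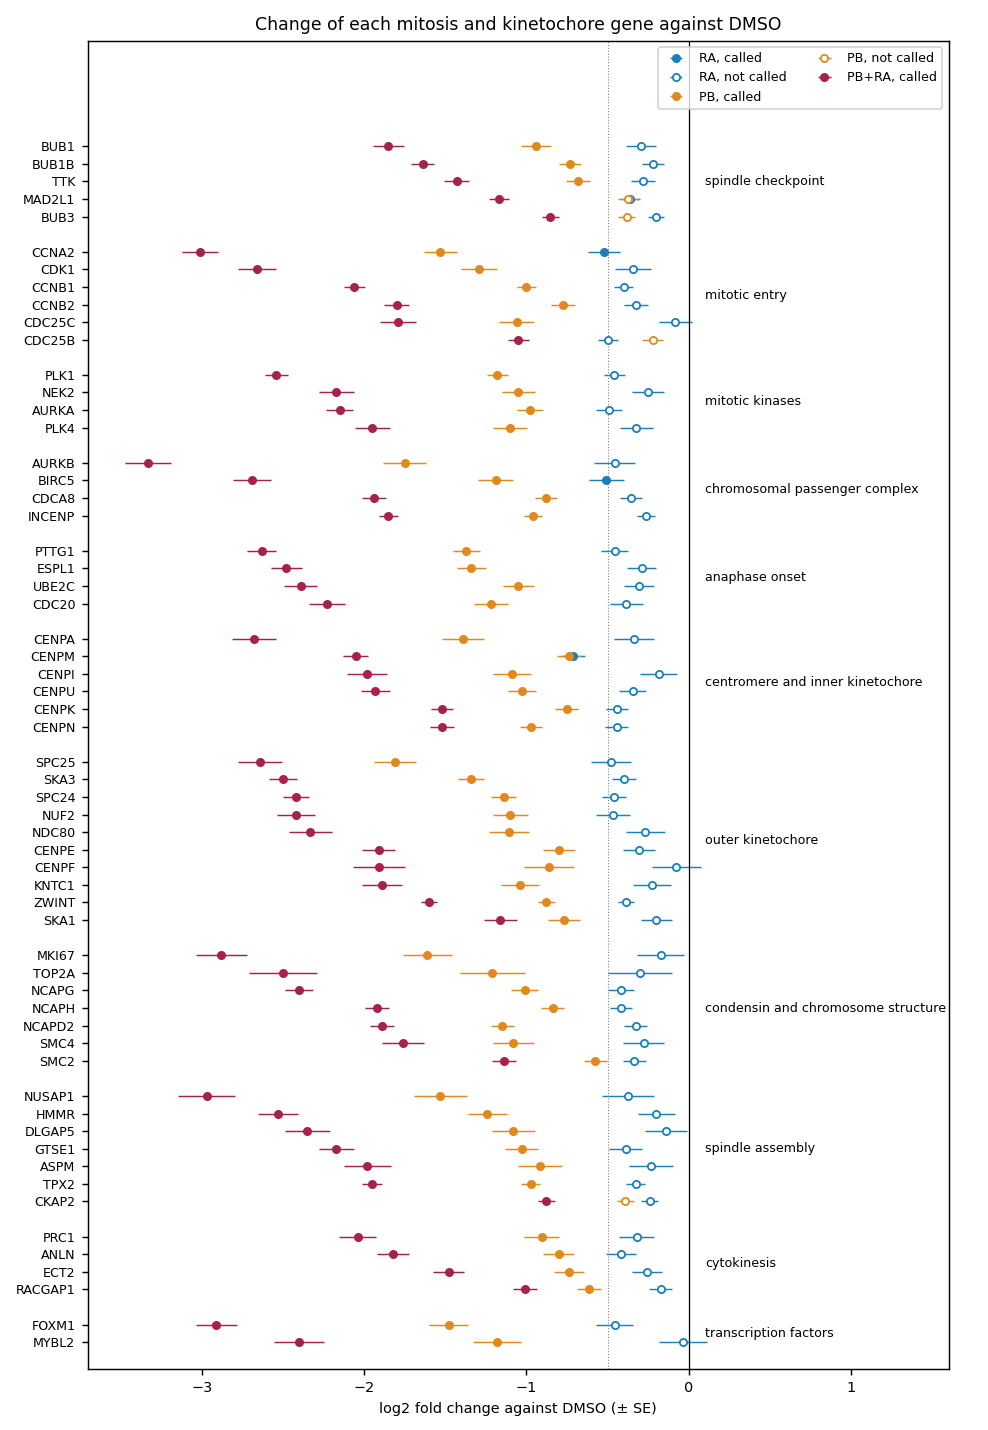
Log2 fold change against DMSO (x axis, ± SE) of each of the 59 genes, ordered within class by the change with PB+RA. Filled points were called and open points were not; the dotted line marks a log2 fold change of -0.5, and every PB+RA point lies left of it, from -3.33 (AURKB) to -0.85 (BUB3).

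The transcription factors kept the smallest share of their summed DMSO level of any class with PB (40.7%) and with PB+RA (16.9%), and the largest with RA (87.9%). FOXM1 (chr12:2966846-2986340 on the minus strand) encodes the forkhead factor that drives G2/M transcription, and MYBL2 (chr20:42295659-42345135 on the plus strand) encodes B-MYB, which brings FOXM1 to MuvB. FOXM1 stood at 369, 356, 337 and 354 CPM in DMSO, 273, 257, 259 and 250.3 under RA, 116, 112, 139.9 and 139.7 under PB and 41.5, 36.5, 58.4 and 55.3 under PB+RA. The groups did not overlap. Its log2 fold change was -1.48 ± 0.118 (SE, adjusted p = 4.96e-08) with PB, -0.46 ± 0.115 (SE, adjusted p = 0.00622) with RA, which missed the fold minimum, and -2.91 ± 0.125 (SE, adjusted p = 1.36e-11) with both agents. MYBL2 stood at 532, 588, 454 and 458 CPM in DMSO, 528, 632, 414 and 420.2 under RA, 218, 260.1, 205 and 211 under PB and 97.9, 123, 87.3 and 83.4 under PB+RA. Its RA and DMSO values lay over each other, and replicates 1 and 2 were the higher pair in all 4 groups, the reverse of FOXM1 in PB and PB+RA. For MYBL2 the log2 fold change was -0.04 ± 0.146 (SE, adjusted p = 0.874) with RA, -1.18 ± 0.149 (SE, adjusted p = 7.49e-06) with PB and -2.40 ± 0.155 (SE, adjusted p = 1.99e-09) with both. B-MYB transcript was thus the least changed by RA of the 59 and FOXM1 transcript among the most changed by the combination. FOXM1 exons share 15.9% of their length with ITFG2 on the opposite strand, which averaged 36.5 CPM against 197 for FOXM1, and the sources used here do not state whether counting used strand.

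Mitotic entry is set off by cyclin-dependent kinase CDK1 with cyclins A and B, after the CDC25 phosphatases remove its inhibitory phosphates. All 6 genes of this class fell with PB+RA and 5 fell with PB. CCNA2 (chr4:122737599-122745038 on the minus strand), which encodes cyclin A2 and acts in both S phase and G2, showed the largest fall of the 59 with both agents after AURKB. It stood at 230.2, 229, 226 and 223 CPM in DMSO, 167, 159, 158 and 152 under RA, 73.2, 74.2, 80.5 and 87.1 under PB and 21.99, 25.6, 33.01 and 34.3 under PB+RA. The groups did not overlap at any step. Its log2 fold change was -0.52 ± 0.0994 (SE, adjusted p = 0.00081) with RA, -1.53 ± 0.102 (SE, adjusted p = 6.89e-09) with PB and -3.01 ± 0.109 (SE, adjusted p = 1.52e-12) with both. CDK1 went from 164 ± 10.6 CPM in DMSO to 26.6 ± 5.53 in PB+RA (mean ± SD, n = 4), a log2 change of -2.66. The B-type cyclins, which carry CDK1 through mitosis, changed by -2.06 (CCNB1) and -1.80 (CCNB2) with both agents. CDC25C changed by -1.06 with PB and -1.79 with both, and its level in RA overlapped that in DMSO. Its exons overlap FAM53C on the opposite strand over 8.80% of their length, with FAM53C at 82.6 CPM and CDC25C at 11.6 CPM on average, so its counts are uncertain. CCNA2 overlaps EXOSC9 in the same way over 9.24% (43.9 CPM against 123 for CCNA2).

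CDC25B (chr20:3767419-3786768 on the plus strand), the phosphatase that starts CDK1 activation at the centrosome, did not follow the others. It stood at 267, 248, 273 and 279 CPM in DMSO, 204, 184, 186 and 185 under RA, 218, 213, 240.4 and 242 under PB and 132, 119, 142 and 131 under PB+RA. Every PB value lay above every RA value, whereas the mean of each of the other 58 genes was lower in PB than in RA. For CDC25B the log2 fold change was -0.22 ± 0.0628 (SE, adjusted p = 0.00658) with PB, short of the fold minimum, -0.50 ± 0.0629 (SE, adjusted p = 2.15e-05) with RA, just short of it, and -1.05 ± 0.0636 (SE, adjusted p = 3.84e-10) with both agents. Per kilobase of exon, CDC25B transcript was 13.4 ± 1.43 times that of CDC25C in DMSO, 10.0 ± 0.777 under RA, 24 ± 2.66 under PB and 22.5 ± 3.52 under PB+RA. The ratio was higher in every PB-treated library than in any without PB. It rests on the CDC25C counts, which are uncertain because of the overlap with FAM53C.

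The mitotic kinases Polo-like kinase PLK1 (centrosome maturation, spindle and cytokinesis), AURKA (spindle poles), NEK2 (centrosome separation) and PLK4 (centriole duplication) all fell with PB and with PB+RA, and none was called with RA. PLK1 had the largest change of the class with PB+RA. Its mean levels were 285 ± 11.4, 209 ± 11.3, 125 ± 6.69 and 49.98 ± 4.87 CPM in DMSO, RA, PB and PB+RA (SD, n = 4 each). The log2 fold change was -1.18 ± 0.0652 with PB, -0.46 ± 0.0642 with RA and -2.54 ± 0.0687 (SE, adjusted p = 2.08e-13) with both. PLK4, the least changed of them with both agents, had mean levels of 68.4 ± 3.81, 54.98 ± 2.31, 31.98 ± 3.16 and 18.1 ± 3.6 CPM and went by -1.10 ± 0.105 and -1.95 ± 0.108 (SE, adjusted p = 1.42e-10). AURKA changed by -2.15 and NEK2 by -2.17 with both agents.

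The chromosomal passenger complex corrects wrong attachments between kinetochore and microtubule and later guides cytokinesis. Its catalytic subunit AURKB (chr17:8108051-8113918 on the minus strand) showed the largest fall of the 59 genes with PB+RA. AURKB stood at 98.9, 98.4, 98.2 and 96.2 CPM in DMSO, 74.1, 77.1, 67.4 and 68.7 under RA, 25.2, 26.8, 29.7 and 34.5 under PB and 7.91, 7.44, 12.5 and 11.9 under PB+RA. The 4 groups did not overlap, and replicates 3 and 4 of PB+RA were above replicates 1 and 2. Its fold change on the log2 scale was -1.75 ± 0.131 (SE, adjusted p = 2.46e-08) with PB, -0.46 ± 0.126 (SE, adjusted p = 0.0105) with RA, under the fold minimum, and -3.33 ± 0.144 (SE, adjusted p = 1.27e-11) with both. Survivin, encoded by BIRC5, targets the complex to centromeres. BIRC5 stood at 170.5, 159.5, 183 and 170.2 CPM in DMSO, 124, 121, 122 and 117 under RA, 67.5, 65.3, 81.2 and 85.6 under PB and 21.8, 23.6, 30.2 and 32.6 under PB+RA, with no overlap between groups. BIRC5 changed by a log2 of -0.51 ± 0.107 (SE, adjusted p = 0.00177) with RA, -1.19 with PB and -2.69 with both. The scaffold INCENP (-1.85 with both agents), with mean levels of 102 ± 5.80, 85.9 ± 4.35, 52.7 ± 1.21 and 28.97 ± 1.80 CPM, and borealin, encoded by CDCA8 (-1.94), complete the complex. Per kilobase of exon, AURKB was 1.90 ± 0.0944 times INCENP in DMSO, 1.66 ± 0.0566 under RA, 1.10 ± 0.170 under PB and 0.678 ± 0.157 under PB+RA, with no overlap between groups. The same ratio of AURKA to AURKB was 1.05 ± 0.0212, 1.03 ± 0.0534, 1.82 ± 0.178 and 2.46 ± 0.363.

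The spindle assembly checkpoint holds back anaphase until every kinetochore is attached, and with PB and with PB+RA its genes kept the largest share of their summed DMSO level of any class, at 69.7% and 44.1%. BUB3 (chr10:124913918-124929983 on the plus strand), the WD40 protein that carries BUB1 and BUBR1 to kinetochores, changed least of all 59 with both agents. It stood at 244, 242, 243 and 237 CPM in DMSO, 220.4, 208, 208 and 208 under RA, 198, 187, 171 and 186 under PB and 139, 148, 132 and 126 under PB+RA. No value of one group overlapped those of the next, yet the log2 fold change was -0.38 ± 0.0523 (SE, adjusted p = 1.26e-05) with PB, under the fold minimum, -0.20 ± 0.0521 (SE, adjusted p = 0.00678) with RA and -0.85 ± 0.0527 (SE, adjusted p = 4.87e-10) with both. MAD2L1, which encodes MAD2, had log2 fold changes of -0.37 ± 0.0622 with PB and -0.36 ± 0.0622 with RA, neither called, and of -1.17 with both. Its RA and PB values overlapped. The checkpoint kinases BUB1 (-1.85) and TTK (-1.43) and the pseudokinase BUBR1, encoded by BUB1B (-1.64), were called with PB and with PB+RA. BUB1 had mean levels of 55.4 ± 2.03, 45.4 ± 2.89, 28.9 ± 1.98 and 15.6 ± 2.78 CPM in DMSO, RA, PB and PB+RA.

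Anaphase begins when CDC20 activates the anaphase-promoting complex (APC/C), UBE2C loads ubiquitin, securin (PTTG1) is destroyed and separase (ESPL1) is freed to cut cohesin. All 4 fell with PB and with PB+RA, and all 4 lay close together, between -2.63 (PTTG1) and -2.23 (CDC20) with both agents. UBE2C, with the highest level per kilobase of the class, had mean levels of 167 ± 6.92, 136 ± 7.46, 80.8 ± 8.94 and 32.5 ± 5.28 CPM in DMSO, RA, PB and PB+RA. Its pseudogene UBE2CP5 reached 3.23 CPM, the highest of any pseudogene copy of the 59 genes in the count table, and reads could be split between them. PTTG1 had 112 ± 4.67, 82.1 ± 3.08, 43.2 ± 5.15 and 18.4 ± 2.20 CPM, a log2 change with both agents of -2.63 ± 0.088 (SE, adjusted p = 7.76e-13). CDC20 had 102 ± 5.77, 78.95 ± 4.26, 43.98 ± 4.47 and 22.3 ± 4.38 CPM, a change of -2.23 ± 0.110 (SE, adjusted p = 3.99e-11). ESPL1 changed by -1.34 with PB and -2.48 with both, so that securin and separase, an inhibitor and its target, both fell.

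The centromere is marked by the histone H3 variant CENPA, on which the inner kinetochore assembles. All 6 genes of this class fell with PB and with PB+RA. CENPA changed most, by -2.68 ± 0.136 (SE, adjusted p = 5.6e-11) with both agents, with mean levels of 46.8 ± 1.29, 37.2 ± 2.65, 17.8 ± 3.19 and 7.46 ± 1.55 CPM in DMSO, RA, PB and PB+RA. It shares 7.08% of its exon length with SLC35F6 on the same strand, which averaged 87.5 CPM, and CENPN shares 4.23% with CMC2 on the opposite strand (54.2 CPM against 60.1 for CENPN). CENPU, a subunit that recruits PLK1, had mean levels of 106 ± 3.41, 83.7 ± 4.95, 51.6 ± 3.72 and 28.3 ± 4.26 CPM in DMSO, RA, PB and PB+RA. CENPK, with 65.96 ± 3.16, 48.8 ± 1.96, 39.1 ± 1.86 and 23.5 ± 2.66 CPM, changed by -1.52 ± 0.0707 (SE, adjusted p = 1.9e-11), CENPN, which binds CENPA nucleosomes, by -1.52 and CENPI, a scaffold of the inner kinetochore, by -1.98.

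CENPM (chr22:42334741-42343156 on the minus strand), a subunit that binds CENPI in the inner kinetochore, was the gene of the 59 most changed by RA. It stood at 63.1, 57.1, 60.8 and 57.7 CPM in DMSO, 41.2, 33.5, 35.5 and 36.1 under RA, 37.02, 33.9, 34.3 and 37.9 under PB and 15.8, 13.8, 15.6 and 13.4 under PB+RA. The RA and PB values overlapped, and the log2 fold change was -0.71 ± 0.0728 (SE, adjusted p = 2.63e-06) with RA and -0.74 ± 0.0731 (SE, adjusted p = 3.75e-07) with PB. With both agents the change was -2.05 ± 0.0771 (SE, adjusted p = 2.02e-12).

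The outer kinetochore grips microtubules through the NDC80 complex, and 10 genes of it and of its partners all fell with PB and with PB+RA. CENPF, a large coiled-coil protein of the kinetochore corona, stood at 222, 218, 223 and 237 CPM in DMSO, 197, 222, 226 and 213 under RA, 120.2, 105, 131 and 139 under PB and 48.5, 43.4, 66.5 and 86.1 under PB+RA. RA and DMSO overlapped. Its log2 fold change was -0.08 ± 0.152 with RA, -0.86 ± 0.153 (SE, adjusted p = 0.000212) with PB and -1.91 ± 0.159 (SE, adjusted p = 3.8e-08) with both. Of the NDC80 complex, NDC80, NUF2 and SPC24 changed by -1.11, -1.10 and -1.14 with PB, and SPC25 by -1.81 ± 0.131 (SE, adjusted p = 1.32e-08), the largest change with PB among the 59. SPC25 stood at 28.1, 26.3, 27.7 and 26.98 CPM in DMSO, 19.99, 20.5, 19.7 and 18.5 under RA, 6.69, 7.30, 7.79 and 9.37 under PB and 3.10, 4.38, 4.77 and 5.69 under PB+RA. NUF2 transcript per kilobase of exon was 1.73 ± 0.0772 times that of SPC25 in DMSO, 1.75 ± 0.0896 under RA, 2.84 ± 0.282 under PB and 2.03 ± 0.230 under PB+RA, and every PB library lay above all libraries of DMSO, RA and PB+RA. With both agents the 4 subunits lay at -2.33, -2.42, -2.42 and -2.64.

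SKA1, of the complex that keeps kinetochores on shortening microtubules, was the least changed of the outer kinetochore, by -1.16 ± 0.0996 (SE, adjusted p = 2.94e-08) with both agents, while its partner SKA3 changed by -2.50. SKA1 per kilobase was 0.379 ± 0.0251 times SKA3 in DMSO and 0.978 ± 0.194 in PB+RA, with no overlap. SKA1 stood at 21.4, 17.4, 20.8 and 20.4 CPM in DMSO, 20.7, 16.1, 15.98 and 17.3 under RA, 12.3, 10.98, 11.6 and 12.1 under PB and 10.1, 8.19, 9.50 and 8.81 under PB+RA, with DMSO and RA overlapping. The kinesin CENPE changed by -1.91, KNTC1, which encodes ROD, by -1.89, and ZWINT, which links ROD to the kinetochore, by -1.60.

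Condensin I folds mitotic chromosomes with topoisomerase II alpha (TOP2A), and Ki-67 (MKI67) coats their surface. All 7 genes of this class fell with PB and with PB+RA. TOP2A stood at 502, 479, 563 and 576 CPM in DMSO, 425, 394, 467 and 443 under RA, 205, 187, 255 and 269 under PB and 66.4, 64.2, 122 and 131 under PB+RA. The groups did not overlap, and in PB+RA replicates 3 and 4 lay far above replicates 1 and 2. Its log2 fold change was -1.21 ± 0.199 (SE, adjusted p = 0.000119) with PB and -2.50 ± 0.208 (SE, adjusted p = 5.44e-08) with both. MKI67 stood at 508, 443, 414 and 460.1 CPM in DMSO, 419, 448, 402 and 361 under RA, 154, 131, 150.4 and 162 under PB and 59.8, 42.6, 63 and 86.8 under PB+RA, with RA and DMSO overlapping. Its fold change on the log2 scale was -0.17 ± 0.145 with RA, -1.61 with PB and -2.88 ± 0.157 (SE, adjusted p = 3.06e-10) with both. In condensin I, NCAPG changed by -2.40 with both agents, NCAPH by -1.92, NCAPD2 by -1.89, SMC4 by -1.76 and SMC2 by -1.14 ± 0.0728 (SE, adjusted p = 7.31e-10), with SMC2 mean levels of 143 ± 6.92, 114 ± 1.6, 96.03 ± 6.33 and 66.4 ± 8.55 CPM. SMC2 and SMC4 are also subunits of condensin II, whereas NCAPG, NCAPH and NCAPD2 belong to condensin I alone. NCAPG per kilobase was 1.57 ± 0.131 times SMC2 in DMSO, 1.48 ± 0.120 under RA, 1.16 ± 0.0660 under PB and 0.651 ± 0.0324 under PB+RA, with no overlap except between DMSO and RA. LCORL on the opposite strand covers 33.7% of NCAPG exon length, at 24.03 CPM against 102 for NCAPG, and MRPL51 covers 5.92% of NCAPD2, at 126 CPM against 234.

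TPX2, which activates AURKA on microtubules, had the highest level per kilobase of the spindle assembly genes, with mean levels of 407 ± 6.49, 326 ± 21.6, 207 ± 10.4 and 108 ± 7.37 CPM in DMSO, RA, PB and PB+RA and a log2 change of -1.95 ± 0.0604 (SE, adjusted p = 4.54e-13) with both agents. All 7 fell with both agents and 6 with PB. NUSAP1, a microtubule-bundling protein, fell furthest. Its mean levels were 240.2 ± 6.23, 186 ± 3.70, 83.1 ± 13.1 and 31.4 ± 10.2 CPM, and its log2 fold change was -1.53 ± 0.165 with PB and -2.97 ± 0.176 (SE, adjusted p = 8.32e-10) with both. Its exons overlap OIP5-AS1 on the same strand (126 CPM against 135 for NUSAP1) over 5.40% of their length. The reference annotation also holds a protein-coding model on the same strand (ENSG00000285920) that covers 81.4% of NUSAP1 exons, so its counts are uncertain. HMMR, with 81.5 ± 2.91, 71.3 ± 2.82, 34.6 ± 3.01 and 14.4 ± 3.68 CPM, changed by -2.53. DLGAP5, with 111 ± 6.27, 101 ± 4.66, 52.5 ± 4.97 and 22.2 ± 6.07 CPM, changed by -2.35, GTSE1, a microtubule-binding protein, by -2.17 and ASPM, a spindle pole protein, by -1.98. CKAP2, a spindle-associated microtubule protein, was the least changed, with mean levels of 186 ± 3.07, 158 ± 9.78, 142 ± 6.42 and 103 ± 5.94 CPM, a log2 change of -0.39 ± 0.0519 (SE, adjusted p = 8.84e-06) with PB, under the fold minimum, and -0.88 ± 0.0523 (SE, adjusted p = 3.25e-10) with both. Its 4 groups were nevertheless free of overlap.

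Cytokinesis needs the central spindle, bundled by PRC1, and the RhoA pathway, in which centralspindlin (RACGAP1) recruits the exchange factor ECT2 and anillin (ANLN) ties the contractile ring to the membrane. All 4 fell with PB and with PB+RA. PRC1 had mean levels of 378 ± 5.31, 304 ± 5.70, 201 ± 28.8 and 93.4 ± 17.3 CPM in DMSO, RA, PB and PB+RA, and in PB and PB+RA replicates 3 and 4 lay above replicates 1 and 2. It changed by -2.04 ± 0.113 (SE, adjusted p = 1.93e-10) with both agents. A same-strand model (ENSG00000284946) covers 57.6% of PRC1 exons, so its counts are uncertain too. RACGAP1, with 228 ± 10.1, 203 ± 9.38, 149 ± 16.4 and 116 ± 8.39 CPM, changed by -0.61 ± 0.073 with PB and -1.01 ± 0.0735 (SE, adjusted p = 3.75e-09) with both. ECT2 changed by -1.48 and ANLN by -1.82. Per kilobase RACGAP1 was 1.98 ± 0.0881 times its partner ECT2 in DMSO and 2.78 ± 0.446 in PB+RA, without overlap.

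**Figure D3:**
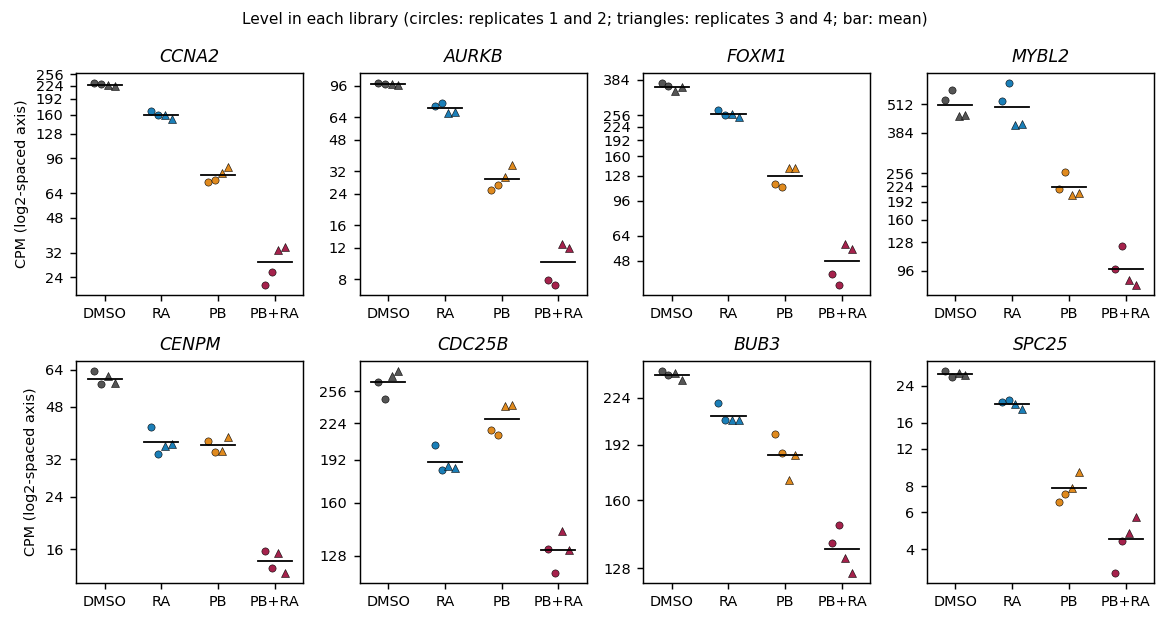
CPM in each of 16 libraries for 8 of the genes (log2-spaced y axes that differ between panels and do not start at 0). Circles are replicates 1 and 2, triangles replicates 3 and 4, and bars group means; CDC25B lies higher in PB than in RA, CENPM lies level in these groups, and MYBL2 lies level in DMSO and RA.

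Per kilobase of annotated exon, levels in DMSO ran from 3.09 CPM (CENPI) and 5.12 (CDC25C) to 111 (CCNB1), 113 (TPX2), 130.1 (UBE2C) and 183 (MYBL2). In PB+RA the range was 0.801 (CENPI) to 35.2 (MYBL2), and CDC25B stood next to MYBL2, at 33.6. The spread between replicates also differed between groups. The median coefficient of variation of the 59 genes was 4.14% in DMSO, 4.61% under RA, 8.73% under PB and 16.03% under PB+RA. These values include the split of replicates 1 and 2 from replicates 3 and 4. In PB+RA and in PB, 56 genes were higher in replicates 3 and 4, against 33 in DMSO and 15 in RA.

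The count of genes called with RA alone depended most on the settings. The genes called were CCNA2, BIRC5 and CENPM, but all 59 estimates were negative, and 43 had an adjusted p below 0.05 with no fold minimum, against 16.4% of tested genes. Most thus sat between 0 and the fold minimum. The count was 6 with RLE size factors or DESeq2, 14 with a GC and length correction and 15 in replicates 3 and 4 alone, against 2 in replicates 1 and 2 alone. Calls over all 15415 tested genes moved too, with 392 lower in the main fit, 466 with RLE size factors and 468 with DESeq2. The correction gave 788, replicates 3 and 4 alone 682 and replicates 1 and 2 alone 312. The count among the 59 was 5 without RA replicate 1, PB replicate 3, PB+RA replicate 1 or PB+RA replicate 2, the added genes being AURKA and CDC25B. CDC25B stood at -0.51 without any one of the last 3 of these libraries and by -0.53 without DMSO replicate 2, where it was also called. BIRC5 was not called without DMSO replicate 3 (-0.47) or RA replicate 4 (-0.50). In replicates 1 and 2 alone its value was -0.44.

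In PB-treated cells RA lowered nearly all of these genes. PB+RA against PB asks what RA adds, and 55 of the 59 genes were called lower, against 7.27% of tested genes, with a median log2 fold change of -1.06. Those not called were BUB3 (-0.47), CKAP2 (-0.49), RACGAP1 (-0.40) and SKA1 (-0.39). Leaving out PB replicate 3 (-0.50) or PB+RA replicate 2 (-0.51) brought in BUB3, and leaving out PB replicate 2, PB+RA replicate 2 or PB+RA replicate 4 brought in CKAP2 (-0.51 to -0.50). CENPN (-0.55) was lost when PB+RA replicate 2 was left out. None was called higher, against 9.02% of tested genes. PB+RA against RA asks what PB adds, and all 59 were called lower, against 14.1%, with a median of -1.71 and none higher, against 14.9%. In replicates 1 and 2 alone the counts were 55 and 59, and in replicates 3 and 4 alone 53 (without CENPN and SMC2) and 58 (without CDC25B).

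The interaction is the log2 change with RA in PB-treated cells minus that in vehicle-treated cells, and a value below 0 means that the pair lowered a gene by more than the sum of the single log2 changes. It was below 0 for all 59 genes and was called for 43, against 3.02% of tested genes called below additive. None was called above additive, where 0.415% of tested genes were. The median was -0.70, against -0.04 for all tested genes. The 5 furthest were MYBL2 (-1.19 ± 0.209, adjusted p = 0.0041), AURKB (-1.13 ± 0.188, adjusted p = 0.00275), DLGAP5 (-1.13 ± 0.186, adjusted p = 0.00245), MKI67 (-1.11 ± 0.208, adjusted p = 0.00609) and HMMR (-1.09 ± 0.169, adjusted p = 0.00144). For MYBL2, RA alone gave -0.04 and RA on top of PB gave -1.22. For DLGAP5, a microtubule-binding spindle protein, these values were -0.14 and -1.27, and for HMMR, a spindle pole protein, -0.20 and -1.30. By class, all members were called among the mitotic kinases, the passenger complex, the anaphase onset genes and the transcription factors, and 5 of 6 for mitotic entry, 6 of 7 for spindle assembly, 7 of 10 for the outer kinetochore, 4 of 6 for the inner kinetochore, 2 of 5 for the checkpoint, 2 of 4 for cytokinesis and 3 of 7 for condensin and chromosome structure.

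Among those not called, TOP2A had a large but loose estimate (-0.99 ± 0.280, adjusted p = 0.0557). With the replicate number as a block it was called (-1.02, adjusted p = 0.00432), and also without PB+RA replicate 3 (-1.13) or PB+RA replicate 4 (-1.17). The other estimates that missed the adjusted p were those of CENPK, CENPN, SPC25, SKA1, SMC2, SMC4, CKAP2 and RACGAP1, with SPC25 at -0.35 ± 0.186, adjusted p = 0.338, and CENPN, the nearest to additive, at -0.10 ± 0.0994, adjusted p = 0.656. BUB3, MAD2L1, TTK, CDC25B, ZWINT, NCAPD2 and ECT2 passed the adjusted p but not the fold minimum (50 of 59 then passed, against 4.35% of tested genes), at -0.48 to -0.27. PLK4 (-0.53 ± 0.149, adjusted p = 0.0484) was called but stood at the edge. Leaving out any library other than PB replicate 2, PB+RA replicate 3 or PB+RA replicate 4 took its adjusted p to between 0.059 and 0.101, and KNTC1 (-0.62 ± 0.166, adjusted p = 0.0386) was lost with the same 13 libraries. With no filter on low counts PLK4, KNTC1, ASPM, CENPF (-0.93, adjusted p = 0.0734) and NUSAP1 (-1.02, adjusted p = 0.0652) were not called. CDC20 (-0.63) was lost without DMSO replicate 4 (-0.58) and CENPU (-0.55) without PB+RA replicate 2 (-0.47). The count was 46 in replicates 1 and 2 alone and 35 in replicates 3 and 4 alone, where MKI67 was not called (-0.84, adjusted p = 0.0918). Over all tested genes, 438 and 566 were called below additive in these pairs.

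**Figure D4:**
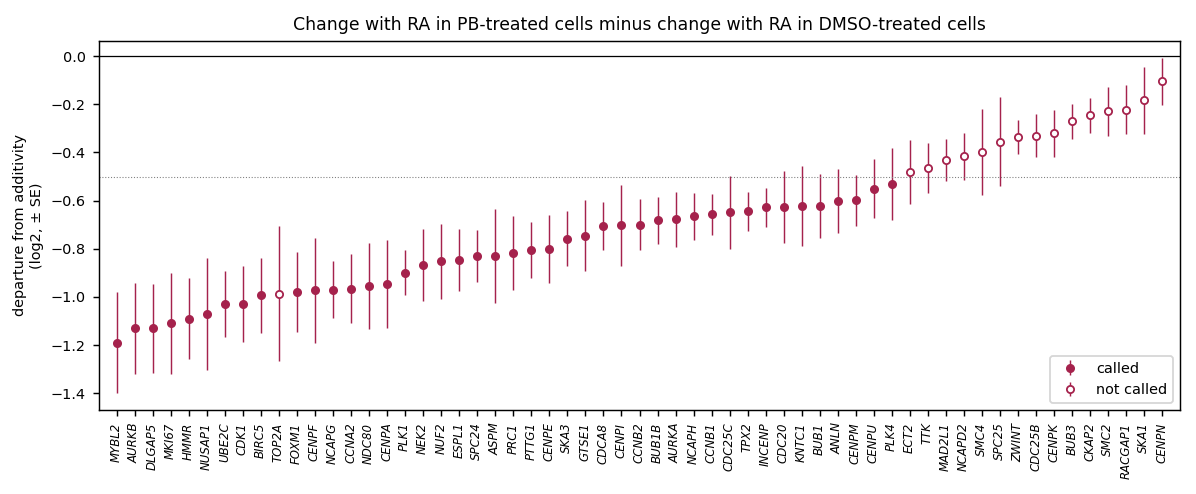
Departure from additivity on the log2 scale (y axis, ± SE) for each of the 59 genes, ordered by value. Filled points were called and the dotted line marks -0.5; all points lie below 0, from -1.19 (MYBL2) to -0.10 (CENPN).

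Another 77 genes of the mitotic machinery, grouped by role, were set beside the 59. With PB+RA, 53 of them fell, against 17.9% of all tested genes, and 3 rose, against 24%, with a median log2 fold change of -0.74 against -1.98 for the 59. The interaction was called below additive for 7 of the 77, against 3.02%, with a median of -0.09. A CHR stood in 22 of the 68 promoters found (32.4%, against 16.6% of all and 11.2% of those of tested genes). The 59 were chosen with earlier results of these data known, so this contrast is a description.

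With PB+RA, 7 of 17 genes of the APC/C and its regulators fell, with a median of -0.40, and the largest change was in FBXO5, which encodes the APC/C inhibitor EMI1, with mean levels of 85.6 ± 5.20, 68.9 ± 3.72, 33.3 ± 5.31 and 17.3 ± 4.54 CPM in DMSO, RA, PB and PB+RA and a log2 change of -2.34 ± 0.149 (SE, adjusted p = 1.15e-09). Of the CDK1 regulators 8 of 10 fell, with a median of -1.37. PKMYT1, the kinase that puts an inhibitory phosphate on CDK1, had mean levels of 131 ± 9.70, 96.7 ± 8.37, 69.5 ± 7.18 and 24.5 ± 4.25 CPM and changed by -2.45 ± 0.113 (SE, adjusted p = 1.98e-11), and by -1.09 ± 0.152 (SE, adjusted p = 0.000842) beyond additive. Of cohesin and its regulators 10 of 13 fell, led by CDCA5 (sororin, which protects cohesion until mitosis), with 102 ± 1.88, 75.4 ± 4.47, 51.6 ± 2.62 and 24.4 ± 2.08 CPM and a change of -2.09 ± 0.064 (SE, adjusted p = 4.54e-13). All 3 condensin II subunits fell, NCAPH2 most, from 153 ± 7.15 to 46.97 ± 4.07 CPM (-1.73 ± 0.0667, adjusted p = 2.58e-12).

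Of 24 other kinetochore genes 20 fell, with a median of -1.02. HJURP, the chaperone that deposits CENPA, changed most, with mean levels of 98.8 ± 3.73, 82.97 ± 3.78, 46.2 ± 3.88 and 23.7 ± 1.73 CPM in DMSO, RA, PB and PB+RA and a log2 change of -2.09 ± 0.0684 (SE, adjusted p = 6.75e-13). CENPT went the other way. This DNA-binding subunit recruits the NDC80 complex, and its mean levels were 88.6 ± 9.07, 79.5 ± 3.27, 135 ± 8.58 and 130.5 ± 16.2 CPM, a rise of 0.60 ± 0.0854 (SE, adjusted p = 1.69e-05) with PB and 0.53 ± 0.0853 (SE, adjusted p = 3.83e-05) with both agents. Of the DREAM and MuvB subunits 5 of 10 fell (17.9% of all tested genes did) and 2 rose (24% did). RBL1, which encodes the RB relative p107, fell most, from 36.5 ± 2.30 to 8.46 ± 1.36 CPM (-2.14 ± 0.0964, adjusted p = 1.34e-11). LIN37, a MuvB subunit, rose from 11 ± 0.293 to 17.6 ± 2.13 CPM (0.65 ± 0.0874, adjusted p = 5.76e-06) and TFDP2, an E2F partner, from 90.97 ± 1.64 to 137 ± 3.08 CPM (0.56 ± 0.0434, adjusted p = 8.14e-09).

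**Figure D5:**
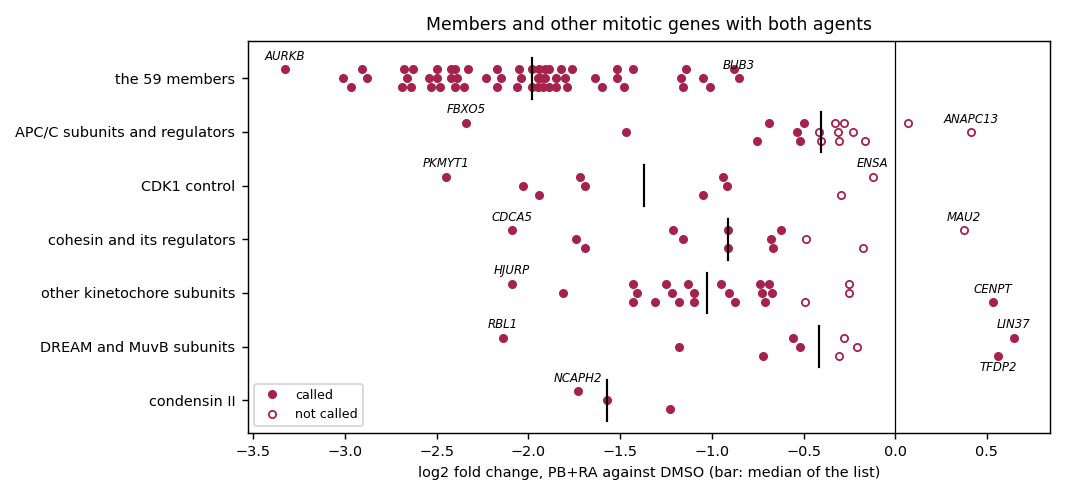
Log2 fold change with PB+RA against DMSO (x axis) of the 59 genes and of 6 lists holding 77 other mitotic genes. Each point is a gene, filled where called, and black bars are list medians; the 59 lie at a median of -1.98 and the APC/C list at -0.40, and CENPT, LIN37 and TFDP2 lie to the right of 0.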

How the data were processed

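RNA was measured in 16 libraries of a polyA-selected, directional, paired-end protocol. Per the labels, the authors trimmed reads with Trim Galore 0.6.4 and aligned them to hg19 with STAR 2.6.1d, whose gene counts they deposited as whole-number counts per gene symbol. The annotation release and the strand used in counting are not given in the sources used here. The authors also deposited CPM, which are the counts scaled to the library total. Their DESeq2 1.32.0 table of log2 fold changes and p-values for their own comparisons was not used.

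The 59 genes, the 77 other mitotic genes and the marker lists were chosen with earlier results of these data known. Counts were filtered with filterByExpr (15415 of 27037 symbols kept), scaled by TMM and fitted over all 16 libraries with edgeR 4.0.16's robust quasi-likelihood test (R 4.3.3, limma 3.58.1). The groups' contrasts with DMSO share the DMSO libraries. The SE is the log2 fold change divided by the root of F. Within each class, values were given for the genes with the highest mean CPM and the largest and smallest change with PB+RA, both transcription factors, the genes called with RA and the 5 furthest interactions, and other genes named with values were chosen after theirs were seen. DESeq2 1.42.0 was an alternative. Exon lengths and coordinates are of GRCh37, and promoters were placed there by exact match.

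Samples were paired by the replicate numbers of the labels, which do not say that same-numbered cultures were handled together. The main fit had group as its only term and did not use this pairing. Deviations from group means correlated at 0.330 to 0.573 in all 24 same-number pairs and at -0.492 to 0.447 in 72 others. Among the 72, pairs within replicates 1 and 2 or within replicates 3 and 4 lay at 0.155 to 0.447. No replicates agreed within sampling noise. Counting error grows as counts fall, and the lowest count of any of the 59 genes in any library was 78.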

Additional observations from a re-analysis of the deposited data

Results flagged for a closer look

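Among the 31 genes whose values were given in full, the highest sample of a group stood far from the others in 3 of 124 groups examined by Dixon's test, which chance flags in about 1 of 20 groups. BUB3 was at 220.0 CPM in RA replicate 1 against 208 in each other RA library, CDC25B at 204 CPM in RA replicate 1 against 184 to 186, and SMC2 at 154 CPM in DMSO replicate 4 against 140.0 in each other.

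The response to RA differed between PB-treated and vehicle-treated cells by the interaction term for 22 of the 31, against 3.02% of all tested genes called below additive. MYBL2, AURKB, DLGAP5, MKI67 and HMMR were among the 31 for this term. Others were among them for the largest or smallest change with PB+RA in their class, and that change enters this term. The count is therefore partly fixed by the choice of genes. Of all 59 genes, 43 were called below additive. The differences on the log2 scale were -0.62 (BUB1), -0.97 (CCNA2), -0.90 (PLK1), -0.53 (PLK4), -0.99 (BIRC5), -1.13 (AURKB), -0.63 (INCENP), -1.03 (UBE2C), -0.81 (PTTG1), -0.63 (CDC20), -0.55 (CENPU), -0.95 (CENPA), -0.97 (CENPF), -1.11 (MKI67), -0.65 (TPX2), -1.07 (NUSAP1), -0.82 (PRC1), -1.19 (MYBL2), -0.98 (FOXM1), -0.60 (CENPM), -1.13 (DLGAP5) and -1.09 (HMMR).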

How the results depend on the processing

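No result reversed under any alternative. The count of genes lower with PB was 33 at a log2 fold minimum of 1, and that for PB+RA against PB was 35. With RA the count of the 59 was 6 with RLE size factors or DESeq2, 7 with no filter on low counts, 43 with no fold minimum, 0 at a fold minimum of 1, 5 with only the groups compared, 14 with a GC and length offset with or without the replicate block, and 15 in replicates 3 and 4 alone. Lower with RA over all tested genes were 474 of 27037 with no filter, 2527 with no fold minimum and 87 at a fold minimum of 1. Comparing only the groups gave 435, and the offset gave 788, or 913 with the block. The count of the 59 below additive was 8 at a fold minimum of 1, 38 with no filter on low counts, and 41 with the GC and length offset (40 of the original 43). Over all tested genes these settings gave 142, 322 (of 27037) and 357, against 466 in the main fit. Leaving out 1 library at a time gave 55 to 55 for PB, 2 to 5 for RA, 59 to 59 for PB+RA, 55 to 56 against PB, 59 to 59 against RA and 40 to 46 below additive. The cause of these shifts was not tested.

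With the replicate number as a block the counts were 55, 3, 59, 55, 59 and 44 in the same order, and the block changed no call of the 59 genes other than that of TOP2A below additive. The block raised the calls below additive over all tested genes from 466 to 981. Over the values of the 31 genes, 4838 kept their side of the threshold, 82 fell short of it and 71 newly passed. The order of the groups without overlap held for 49 genes on TMM-scaled CPM and 47 after centring on the replicate number. Each group had 4 replicates of 1 cell line.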
